A study of Mus musculus with 24 samples.

Results

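The 10 genes described here act in hepcidin control, and their transcripts were followed in liver and bone marrow after blood loss: the BMP ligands Bmp2, Bmp4 and Bmp6, the receptors Bmpr1a, Acvr1, Bmpr2 and Acvr2a, and the surface regulators Hfe2 (the array's name for hemojuvelin, Hjv), Neo1 and Tmprss6. They were taken by the gene name printed for each probe in the scanner files. The 10 genes are covered by 20 probes, of 37074 gene names and 56605 probes on the array, and each probe was read apart. Of the genes, 3 have 1 probe, 4 have 2 probes and 3 have 3 probes.

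Whole liver and bone marrow came from male Erfe-/- mice that were bled by retro-orbital puncture. The series' design text gives 4 mice per time, and each group holds 4 arrays of 1 tissue sample each. The labels do not say which liver and marrow samples came from the same mouse. The 6 groups are liver and marrow at 0 h, labelled as the control, at 24 h and at 48 h. Every group lacks Erfe, the gene for erythroferrone, so no group shows the response of mice that have it. Strain and age are not given in the sources used here. The comparisons ask which transcripts of this pathway changed after bleeding in mice without erythroferrone, and how the tissues differed.

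BMP6 and BMP2, made largely by the endothelial cells that line the liver sinusoids, bind receptor complexes on hepatocytes that hold type I receptors such as ALK3 (Bmpr1a) and ALK2 (Acvr1) and type II receptors such as BMPR2 and ACVR2A. Hemojuvelin is the co-receptor that raises the signal, neogenin (Neo1) binds hemojuvelin, and the serine protease TMPRSS6 cleaves it. The activated receptors phosphorylate SMAD proteins, which switch on Hamp, the hepcidin gene, and erythroferrone lowers hepcidin by trapping BMP ligands.

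All levels below are log2 of the processed signal minus log2 of the array's 75th percentile. A probe was tested in a tissue when the scanner software marked it as well above background on every array of 1 or more groups there. By that rule 17 of the 20 probes, for all 10 genes, were tested in liver, and 12 probes, for 9 genes, in marrow. Hfe2 was the gene without a tested probe in marrow. The probes tested in neither tissue were A_55_P2589310 of Bmpr1a, A_55_P2159705 of Acvr1 and A_52_P11800 of Acvr2a, which were well above background on 6, 5 and 2 of the 12 liver arrays and on 0, 0 and 1 of the 12 marrow arrays. The probes tested in liver and not in marrow belong to Bmpr2 (A_55_P2943039), Acvr2a (A_52_P575854), Hfe2, Neo1 (A_55_P2733167) and Tmprss6 (A_55_P2744935). A whole-tissue level cannot tell fewer cells of a type from less RNA in each cell.

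The probe sequences below are shown because the results turn on what these probes can bind. All are given 5′ to 3′ as deposited, with mm9 positions from the file headers. The first pair belongs to Bmp4, the gene that changed after bleeding, and lies on the minus strand of chromosome 14 at chr14:47003802-47003861 and chr14:47003391-47003450. The second probe is shown by its first 30 bases.

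Bmp4 A_51_P383741: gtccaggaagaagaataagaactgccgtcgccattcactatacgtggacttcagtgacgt
Bmp4 A_55_P2154387, bases 1 to 30: caaccacctacacataccacacaaactgct

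The 3 Bmpr2 probes did not all give the same picture of the gene. They lie on the plus strand of chromosome 1, at chr1:59934262-59934321, chr1:59912789-59912848 and chr1:59907509-59907567. Capitals mark the 12-base word of each that recurs most among the array's other probes, shown for the second and the third.

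Bmpr2 A_51_P518698, bases 1 to 30: gaacgctgacattaagccactcaagagttt
Bmpr2 A_55_P2716027, bases 1 to 30: ccaggCACACACACACAcaagcaagcaaaa
Bmpr2 A_55_P2943039, bases 31 to 60: ctgatttacgtGAAACCCTGTCTgaaaaaa

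The word CACACACACACA, a run of CA repeats, was found on either strand in 169 of the 56605 probes, a share of 0.299%. The word GAAACCCTGTCT was found in 21 probes, a share of 0.0371%. Of the other 18 member probes, none had a 12-base word shared on either strand with more than 7 probes of another gene name. A shared word is a description of the letters and not a measure of what bound.

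The last set reads the transcripts that separated the tissues most. Hfe2 lies on the plus strand at chr3:96332113-96332172, and the Tmprss6 probes on the minus strand at chr15:78270258-78270317 and chr15:78274526-78274582.

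Hfe2 A_51_P206824: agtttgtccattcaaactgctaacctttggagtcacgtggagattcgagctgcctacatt
Tmprss6 A_51_P219266, bases 1 to 30: agcctcttgggggaactgcacagagaaaga
Tmprss6 A_55_P2744935: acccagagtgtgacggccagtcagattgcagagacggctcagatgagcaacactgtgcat

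The tissue labels were checked against marker genes. All 10 hepatocyte markers were well above background on every liver array, and the 10 marrow stroma, 10 erythroblast and 10 neutrophil markers were so on every marrow array. One marrow sample, 24 h replicate 2, also carried liver transcripts. The 10 hepatocyte markers lay there at a median of 15.1% of their liver mean (range over markers 7.16% to 39.7%), while on each of the remaining 11 marrow arrays that median was between 0.00296% and 0.0503%. The 24 h change of each member probe tested in marrow is given below with and without it. The 75th percentile signal ranged from 361.2 to 473.1 on the liver arrays and from 715 to 954.7 on the marrow arrays, and 28013 to 35700 probes were well above background on an array.

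In marrow, Bmp4 fell after bleeding on both of its probes, and it was the member that passed the test in the tested comparisons with 0 h when all arrays were used. Bmp4 encodes a secreted BMP ligand made by stromal and endothelial cells, known in mouse spleen for its part in stress erythropoiesis. At 24 h it was 2.33-fold lower on A_51_P383741 and 2.48-fold lower on A_55_P2154387, and at 48 h it was 1.86-fold and 2.14-fold lower. In liver the same probes passed no test.

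On A_51_P383741 the marrow arrays at 0 h, in the order of replicates 1 to 4, read -1.42, -1.44, -1.20 and -1.02, a mean of -1.27 ± 0.20 (SD, n = 4). At 24 h they read -2.48, -2.76, -2.21 and -2.52, a mean of -2.49 ± 0.23, and at 48 h -2.06, -2.40, -2.39 and -1.81, a mean of -2.16 ± 0.28. Every array at 24 or 48 h was below every array at 0 h, and the later groups overlapped each other. The change was -1.22 at 24 h (SE 0.16, limma adjusted p 0.00497) and -0.89 at 48 h (SE 0.16, limma adjusted p 0.024).

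On A_55_P2154387 the arrays at 0 h read 0.29, 0.24, 0.27 and 0.55, a mean of 0.34 ± 0.14 (SD, n = 4). At 24 h they read -0.93, -1.20, -0.76 and -0.99, a mean of -0.97 ± 0.18, and at 48 h -0.53, -1.17, -0.995 and -0.35, a mean of -0.76 ± 0.39. Again no later array reached the range at 0 h. The changes were -1.31 at 24 h (SE 0.17, limma adjusted p 0.00497) and -1.10 at 48 h (SE 0.17, limma adjusted p 0.0116). The exact two-sided permutation test gave p = 0.0286 for each of these 4 differences, the smallest it can give for 4 arrays against 4.

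**Figure D1:**
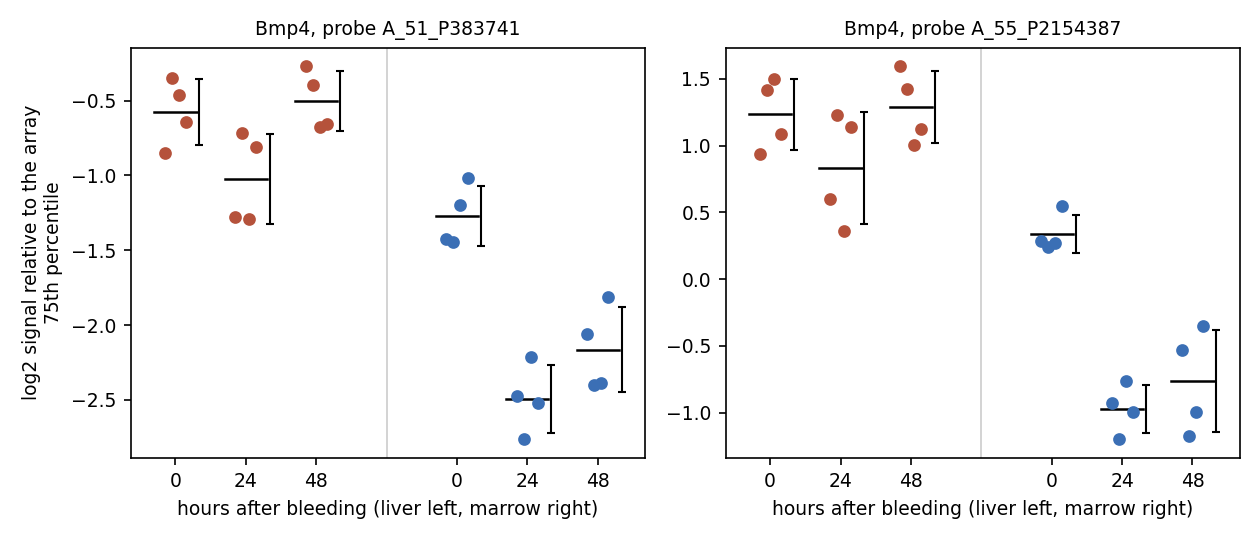
Level of the Bmp4 probes (log2 signal relative to the array's 75th percentile, own scale for each probe) on each of the 24 arrays, by hours after bleeding, with liver in red and marrow in blue and replicates 1 to 4 from left to right in each group. Lines are group means and bars are ± 1 SD over 4 arrays; the marrow points at 24 and 48 h lie below all marrow points at 0 h on both probes, and the liver points of 0, 24 and 48 h overlap except between 24 and 48 h on A_51_P383741.

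Within each of the 3 slides the marrow difference had the same sign. At 24 h the within-slide values ran from -1.56 to -1.04 on A_51_P383741 and from -1.47 to -1.19 on A_55_P2154387, and at 48 h from -1.20 to -0.62 and from -1.36 to -0.80. Without 24 h replicate 2 the fall at 24 h was -1.13 (limma adjusted p 0.015) and -1.23 (limma adjusted p 0.0169). The call at 48 h on A_51_P383741 was lost in 9 of its 24 alternative analyses, among them each analysis that left out 1 array at 0 h, with adjusted p-values up to 0.0968 without 48 h replicate 2. On A_55_P2154387 it held in all 25. From 24 to 48 h the probes read 0.33 and 0.21 higher, with limma adjusted p 0.65 and 0.782.

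Both Bmp4 probes were called lower among 12 tested member probes at 24 h, where 0.845% of the 32197 tested marrow probes were called and 0.379% were called lower. All marrow probes split into 150 called higher and 122 lower, or 133 and 63 with median scaling. At 48 h they were again the 2 called member probes, where 1.21% of marrow probes were called and 0.146% were called lower. As the probes share a transcript, they count as 1 gene.

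Over the 12 marrow arrays the Bmp4 probes followed each other with a Pearson r of 0.983 (Spearman rho 0.937). Of 31553 marrow probes with a value on every array, those of other named genes closest to A_55_P2154387 were Gas6 (r = 0.97), a secreted ligand of TAM receptors, Cyth1 (r = 0.961), an exchange factor for ARF proteins, and Thy1 (r = 0.945), a cell surface glycoprotein of T cells and stromal cells. These arrays share their time groups and scaling, so the coefficients are a description.

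Marker lists of other cells were read in the same marrow samples as Bmp4. The summed linear level of the 10 marrow stroma markers was 377.9 to 453.4 at 0 h, 229.7 to 400.5 at 24 h and 174.8 to 392.1 at 48 h, with none of the 10 called by limma at either time and 3 lower at an unadjusted p under 0.05 at each. The 10 B cell markers summed to 44.56 to 74.95 at 0 h, 29.8 to 45.8 at 24 h and 31.2 to 58.7 at 48 h. Of the 9 tested, Cxcr5 was called lower at 24 h, 0 were called at 48 h, and 8 and 4 were lower at an unadjusted p under 0.05. The erythroblast markers summed to 939.1 to 1215 at 0 h, 929.8 to 1077 at 24 h and 1094 to 1326 at 48 h, with Tfrc, the transferrin receptor, called higher at both times. Of these 10 markers, 2 were higher and 2 lower at an unadjusted p under 0.05 at 24 h, and 6 were higher and 0 lower at 48 h. The 7 Kupffer cell and macrophage markers summed to 19.9 to 24.9, 14.4 to 18.2 and 13.7 to 18.6 in time order, and of 6 tested none was called by limma, with 4 lower at 24 h and 2 at 48 h at an unadjusted p under 0.05. Over all marrow probes the shares at that level were 5.58% higher and 6.16% lower at 24 h, and 10.4% higher and 4.96% lower at 48 h. The 8 marrow endothelium markers summed to 7.65 to 9.38, 7.46 to 9.11 and 7.06 to 9.18, with none called. No defining marker of stroma or endothelium was below background on any marrow array. The part of these cell types in the fall of Bmp4 was not tested.

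In liver Bmp4 read -0.85, -0.35, -0.46 and -0.65 at 0 h on A_51_P383741, with a mean of -0.58 ± 0.22 (SD, n = 4). It read -1.28, -0.72, -1.29 and -0.81 at 24 h, and -0.27, -0.40, -0.68 and -0.66 at 48 h. The change was -0.45 at 24 h (SE 0.16, limma adjusted p 0.407) and 0.08 at 48 h (adjusted p 0.984). The 24 h and 48 h groups did not overlap and differed by 0.52 (limma adjusted p 0.518, exact permutation p 0.0286), in a comparison where 3.81% of liver probes had groups that did not overlap. It was the member probe with such groups in liver. On A_55_P2154387 the liver means were 1.23 ± 0.27, 0.83 ± 0.42 and 1.29 ± 0.27 in time order, and all 3 groups overlapped.

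Whether the Bmp4 change differed between the tissues was asked with an interaction term in a fit of the 24 arrays, and the difference was not called. The marrow change minus the liver change was -0.77 (95% interval -1.27 to -0.28, limma adjusted p 0.195) on A_51_P383741 and -0.91 (-1.504 to -0.31, adjusted p 0.21) on A_55_P2154387 at 24 h. Without marrow 24 h replicate 2 the 24 h values were -0.68 and -0.83 (adjusted p 0.295 and 0.303). At 48 h it was -0.97 (-1.47 to -0.47, adjusted p 0.0951) and -1.15 (-1.75 to -0.56, adjusted p 0.0971) with all arrays. None of the 17 member probes was called in either interaction, where 0.282% and 0.247% of 34402 probes were. The unadjusted p was under 0.05 for 3 member probes at 24 h, both Bmp4 probes and Hfe2, and for 2 at 48 h, both of Bmp4, beside 10.4% and 10.1% of all probes.

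Ordered by mean, Bmp4 was highest in liver at 48 h and 0 h, then in liver at 24 h, then in marrow at 0 h, 48 h and 24 h, on both probes. Marrow at 0 h against 48 h was the neighbouring pair in that order whose arrays did not overlap.

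Bmp2, the second main BMP ligand of liver sinusoidal endothelium, was measured by 1 probe, A_55_P2041961 (chromosome 2, mm9). In marrow it read -1.64, -1.38, -1.62 and -1.60 at 0 h, -2.12, -1.30, -2.37 and -2.17 at 24 h, and -1.80, -1.58, -1.91 and -1.95 at 48 h. At 24 h, 3 arrays lay below all arrays at 0 h, and replicate 2, the array with liver transcripts, lay above them. With all arrays the change at 24 h was -0.43 (SE 0.20, limma adjusted p 0.426). Without replicate 2 it was -0.66 (SE 0.11, 95% interval -0.91 to -0.40, limma adjusted p 0.038), so the call depended on that array. In that analysis 3 of 12 member probes were called lower, against 0.494% of 32361 probes called and 0.167% called lower. At 48 h the change was -0.25 with all arrays (adjusted p 0.579) and -0.25 without that array (adjusted p 0.256).

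In liver Bmp2 read 1.96, 1.72, 1.76 and 1.497 at 0 h, 1.02, 1.58, 1.62 and 1.54 at 24 h, and 1.60, 2.09, 1.73 and 1.92 at 48 h. The groups overlapped, and replicate 1 at 24 h was the lowest of the 12 arrays. The changes were -0.29 at 24 h (SE 0.15, limma adjusted p 0.529) and 0.10 at 48 h (SE 0.15, adjusted p 0.979). The 48 h level was 0.39 above the 24 h level (limma unadjusted p 0.0266, adjusted p 0.587). Of 28514 liver probes with a value on all 12 arrays, the named genes closest to Bmp2 were Cln8 (r = 0.915), Il6ra (r = 0.905), the alpha subunit of the interleukin receptor that acts on hepcidin through STAT proteins, and Csrnp1 (r = 0.902). By rank the correlations were lower, with a Spearman rho of 0.762, 0.734 and 0.804 in that order.

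Bmp6, the ligand whose liver transcript is known to rise with iron stores, was read by A_52_P413646 (chromosome 13). In liver it read -2.06, -2.22, -1.99 and -1.47 at 0 h, -1.95, -1.35, -2.53 and -1.95 at 24 h, and -1.98, -2.27, -2.36 and -2.11 at 48 h. The 3 groups overlapped. The changes were -0.01 at 24 h (95% interval -0.50 to 0.48) and -0.24 at 48 h (-0.74 to 0.25), with limma adjusted p 0.994 and 0.943. In marrow it read -1.53, -1.33, -1.20 and -1.38 at 0 h, -2.29, -1.74, -1.55 and -1.82 at 24 h, and -1.70, -1.49, -2.76 and -1.49 at 48 h. All 4 arrays at 24 h lay below those at 0 h, yet the change of -0.49 was not called (SE 0.26, limma adjusted p 0.495), and it was -0.53 (adjusted p 0.56) without replicate 2. At 48 h it was -0.50 (adjusted p 0.382), with replicate 3 the lowest array. The liver patterns closest to Bmp6 were those of Meis1 (r = 0.951), a homeobox factor, Heph (r = 0.888), the ferroxidase hephaestin, and Ehd2 (r = 0.885), a caveolar ATPase. Their Spearman rho was 0.944, 0.776 and 0.776.

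**Figure D2:**
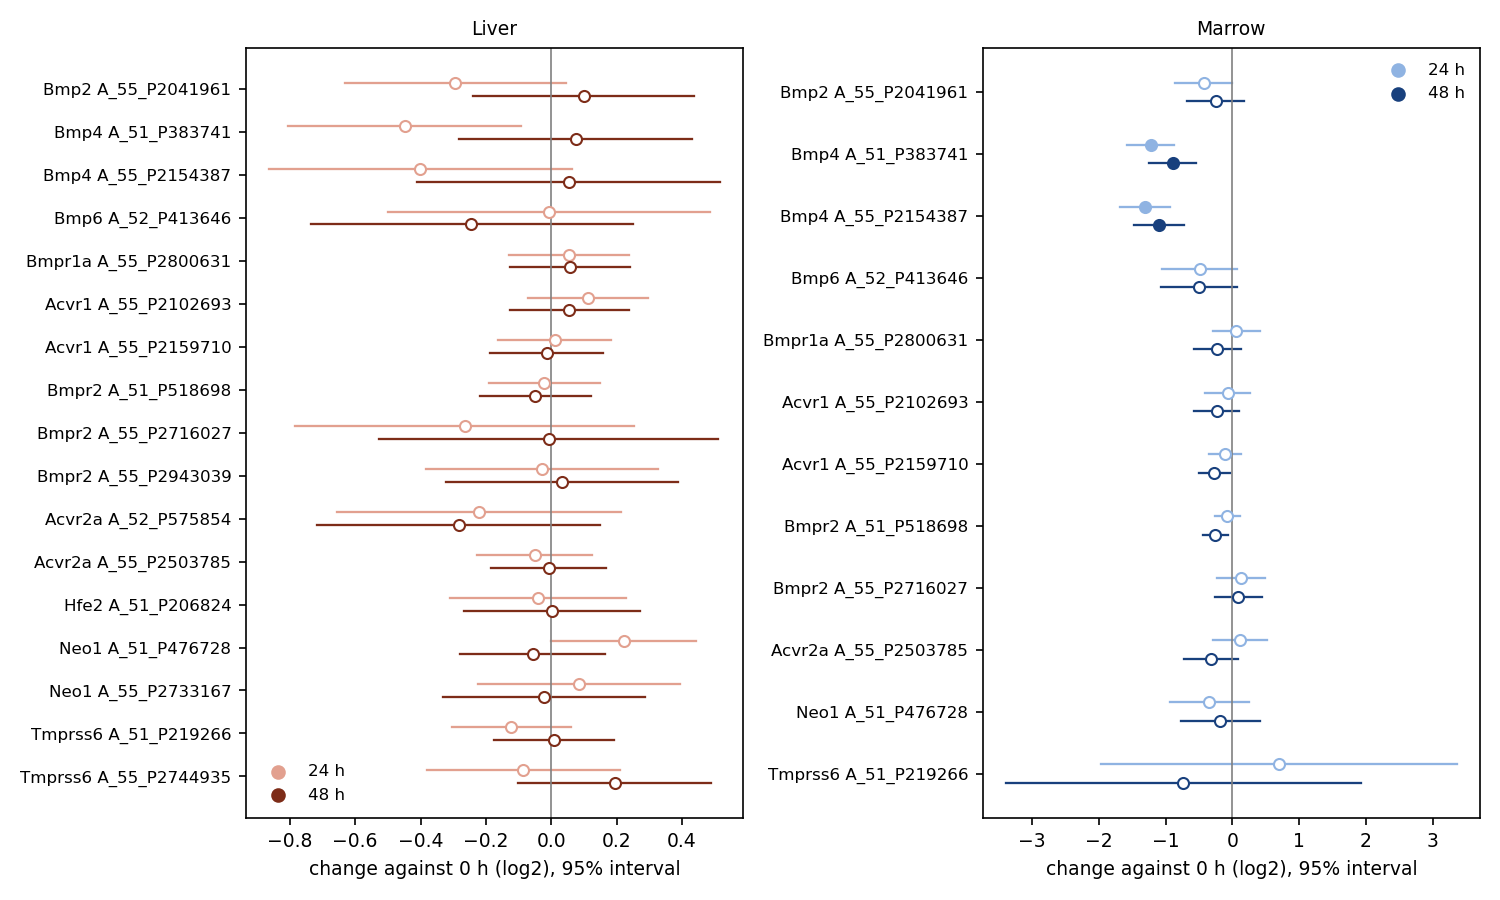
Change against 0 h (log2, later time minus 0 h) of each tested member probe at 24 h (light) and 48 h (dark), in liver on the left and marrow on the right, with 95% intervals from the limma fit; filled points are called at an adjusted p under 0.05. The x axes differ: no liver probe is filled, the Bmp4 probes are filled at both times in marrow, and the wide Tmprss6 interval in marrow comes from a group whose arrays read from -4.54 to 2.56.

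No member probe passed the test in liver at 24 or 48 h against 0 h, or between those times (0 of 17 by limma in each, where 0.0% of 28783 probes were called). The unadjusted p was under 0.05 for 1, 0 and 3 member probes, shares of 5.88%, 0.0% and 17.6%, against 10.5%, 5.95% and 7.7% of all liver probes. The 3 between 24 and 48 h were Bmp2 and Bmp4 on A_51_P383741, both higher at 48 h, and Neo1 on A_51_P476728, lower at 48 h. The median change of the members was -0.04 at 24 h and 0.00 at 48 h, beside -0.015 and -0.014 over all liver probes.

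No probe of the type I receptors was called after bleeding in either tissue. Bmpr1a, on A_55_P2800631, had liver means of 0.38 ± 0.15, 0.44 ± 0.09 and 0.44 ± 0.04 at 0, 24 and 48 h (n = 4 each), with 95% intervals of the change from -0.13 to 0.24 at both times. In marrow it read -1.35 ± 0.14, -1.28 ± 0.33 and -1.57 ± 0.22 in the same order, with changes of 0.06 and -0.22 (limma adjusted p 0.918 and 0.543). Acvr1, on A_55_P2159710, read 2.13, 2.02, 1.98 and 1.88 in liver at 0 h and stayed between 1.87 and 2.13 on all 12 liver arrays. In marrow that probe read 0.11, 0.23, 0.04 and 0.02 at 0 h and -0.01, -0.37, -0.08 and -0.23 at 48 h. The 48 h arrays lay below those at 0 h, and the difference of -0.27 was not called (SE 0.11, limma adjusted p 0.245). The second Acvr1 probe, A_55_P2102693, gave -0.23 at 48 h in marrow with overlapping groups (adjusted p 0.501).

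Among the type II receptors, Bmpr2 on A_51_P518698 read 1.75 ± 0.06, 1.73 ± 0.10 and 1.70 ± 0.11 in liver (SD, n = 4 each). In marrow it read 0.49, 0.62, 0.52 and 0.50 at 0 h, 0.39, 0.48, 0.63 and 0.32 at 24 h, and 0.19, 0.27, 0.23 and 0.41 at 48 h. The 48 h arrays lay below those at 0 h. That change, -0.26 (SE 0.09, limma adjusted p 0.176), was not called, with adjusted p-values from 0.122 to 0.481 over its 25 alternatives. Acvr2a on A_55_P2503785 changed by -0.05 and -0.01 in liver and by 0.11 and -0.32 in marrow, with limma adjusted p-values from 0.434 to 0.997. Without marrow 24 h replicate 2 the 24 h marrow change of Acvr2a was -0.01 (adjusted p 0.993), so its sign turned. Its probe A_52_P575854 read -3.02 ± 0.39, -3.24 ± 0.14 and -3.30 ± 0.33 in liver.

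Without marrow 24 h replicate 2 the 24 h marrow changes of the other receptor probes were 0.14 for Bmpr1a, -0.04 and -0.09 for Acvr1 on A_55_P2102693 and A_55_P2159710, and -0.08 and 0.18 for Bmpr2 on A_51_P518698 and A_55_P2716027. None was called, and with all arrays they were 0.06, -0.07, -0.11, -0.08 and 0.14.

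Across marrow, groups did not overlap for 3 of 12 member probes at 24 h, all lower, and for 4 of 12 at 48 h, all lower. Over all marrow probes such groups made up 7.96% at 24 h, 3.84% in the lower direction, and 12.3% at 48 h, 3.94% in the lower direction. At 24 h they were Bmp4 on both probes and Bmp6, and at 48 h Bmp4 on both probes, Acvr1 on A_55_P2159710 and Bmpr2 on A_51_P518698. The median change of the member probes was -0.09 at 24 h and -0.27 at 48 h, beside -0.02 and 0.01 over all marrow probes. Between 24 and 48 h 0 of 12 were called by limma, where 0.00311% of marrow probes were, and 1 had an unadjusted p under 0.05, beside 7.9% of marrow probes: Acvr2a at -0.43 (adjusted p 0.621).

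Hfe2, Neo1 and Tmprss6 act on the receptor complex of the hepatocyte. Hfe2 read 0.75, 0.48, 0.52 and 0.61 in liver at 0 h, 0.49, 0.60, 0.62 and 0.50 at 24 h, and 0.93, 0.70, 0.31 and 0.45 at 48 h. The changes of -0.04 and 0.00 had 95% intervals of -0.31 to 0.23 and -0.27 to 0.27. Tmprss6 on A_51_P219266 read 6.28 ± 0.06, 6.16 ± 0.13 and 6.29 ± 0.11 in liver, with changes of -0.12 and 0.01 (limma adjusted p 0.632 and 0.998). Its second probe changed by -0.09 and 0.19 (adjusted p 0.856 and 0.918). Neo1 on A_51_P476728 read -1.07, -1.14, -1.002 and -0.91 in liver at 0 h, -1.01, -0.75, -0.89 and -0.59 at 24 h, and -1.24, -0.95, -1.13 and -1.03 at 48 h. Its change of 0.22 at 24 h (SE 0.10, limma adjusted p 0.477) and its change of -0.28 from 24 to 48 h (adjusted p 0.577) were not called. In marrow the same probe gave -0.35 and -0.18 (adjusted p 0.661 and 0.787), and the 24 h value was -0.19 (adjusted p 0.876) without replicate 2.

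In marrow Tmprss6 on A_51_P219266 read -3.70, -3.24, -2.55 and -2.83 at 0 h, -4.54, 2.56, -4.00 and -3.53 at 24 h, and -3.65, -3.75, -4.32 and -3.52 at 48 h. The 2.56 belongs to 24 h replicate 2 and equals 7.77% of the liver mean. On that array Hfe2 read -3.25, or 7.0% of its liver mean, and Tmprss6 on A_55_P2744935 read -3.57, or 3.99%. It was the marrow array on which Hfe2 and this second Tmprss6 probe were well above background. With all arrays the 24 h change of A_51_P219266 was 0.70 (SE 1.22, limma adjusted p 0.865), and without that array it was -0.94 (SE 0.31, adjusted p 0.259), so its sign turned. At 48 h the change of A_51_P219266 was not called, with a 95% interval of -3.399 to 1.935 with all arrays. Without the 24 h array it was -0.73 (SE 0.29, limma adjusted p 0.219). The Hfe2 interaction at 24 h was 1.81 (adjusted p 0.343) with that array and 0.98 (adjusted p 0.227) without it, and the marrow arrays other than that one held Hfe2 below background.

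**Figure D3:**
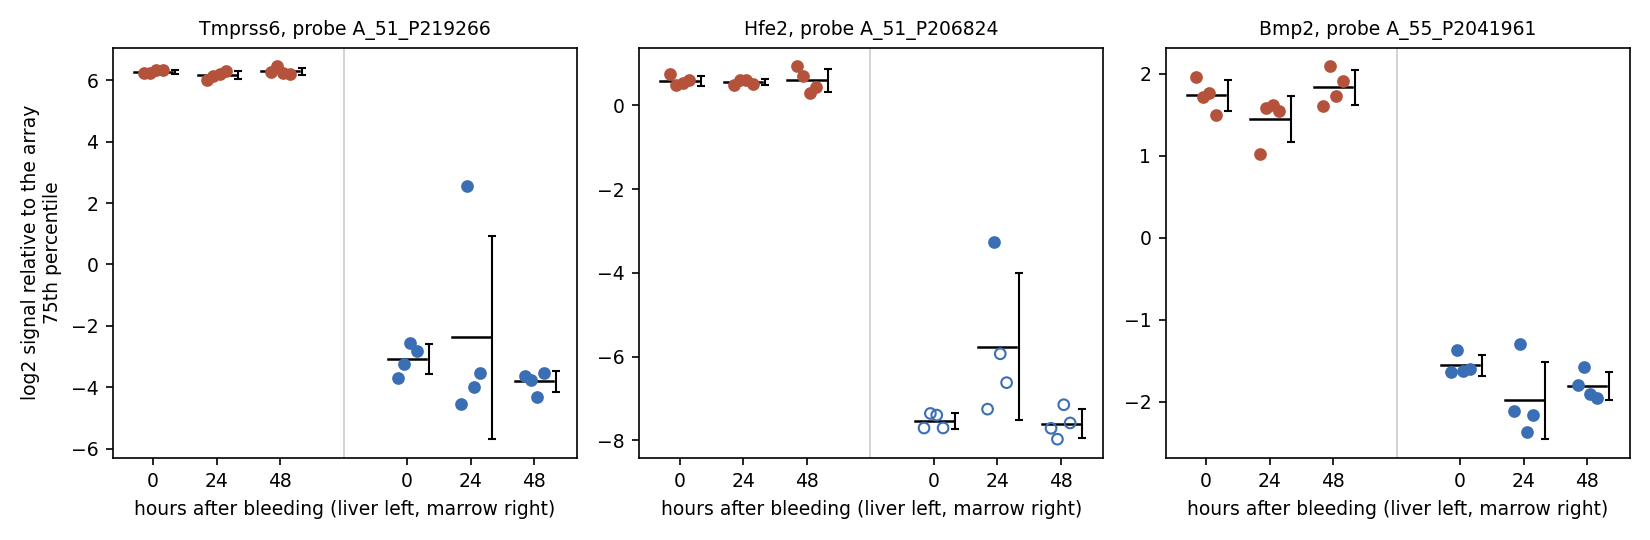
Level (log2 signal relative to the array's 75th percentile, own scale for each probe) of Tmprss6, Hfe2 and Bmp2 on each of the 24 arrays by hours after bleeding, liver in red and marrow in blue, replicates 1 to 4 from left to right in each group; open points are not well above background, lines are means and bars ± 1 SD over 4 arrays. Among the marrow points, 24 h replicate 2 is the highest in each panel, at 2.56, -3.25 and -1.30.

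At 0 h most members were lower in marrow than in liver. Of 17 probes, 14 were called lower and 1 higher, in a comparison where 79.2% of 34402 probes were called, 38.5% lower and 40.7% higher. Of these probes, 5 passed the background filter through liver groups only, so the filter itself favoured a lower marrow level for them. All 5 are among the 14 called lower. The median member difference, these 5 included, was -1.88, beside 0.04 over all probes. With normexp background correction the all-probe median became -0.25 and the calls were 10934 higher and 17121 lower, against 13989 and 13245, and without the filter on dim probes it became -0.40, with 14285 higher and 19851 lower. The 15 called probes represent all 10 genes, and groups did not overlap for 14 of 17, against 75.1% of all probes. The fit treated liver and marrow arrays as independent samples, although both tissues may come from the same 4 mice.

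Tmprss6 and Hfe2 stood furthest apart. Tmprss6 on A_51_P219266 was at 6.28 ± 0.06 in liver and -3.08 ± 0.50 in marrow (SD, n = 4 each), a difference of -9.36 or 658-fold (SE 0.93, limma adjusted p 8.83e-09). That SE draws on the spread of all 6 groups, and without marrow 24 h replicate 2 it was 0.22 (limma adjusted p 1.56e-18). Hfe2 was well above background on 0 of 4 marrow arrays at 0 h, and was at least 55.8-fold lower there than in liver. The second Tmprss6 probe, also not well above background in marrow, was at least 76.0-fold lower. These bounds set the liver mean against the lowest signal that the scanner software marked as well above background on each marrow array, or the probe's own value where that was higher.

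The ligands differed from each other in this comparison. Bmp2 was 9.81-fold lower in marrow (difference -3.29, SE 0.18, limma adjusted p 9e-13), and all 12 liver arrays lay above all 12 marrow arrays. Bmp4 was 1.62-fold lower on A_51_P383741 and 1.86-fold lower on A_55_P2154387, with limma adjusted p 0.000833 and 0.000424. Bmp6 was the member that was higher in marrow, at -1.36 ± 0.14 against -1.94 ± 0.32, a difference of 0.58 (SE 0.26, limma adjusted p 0.0455, exact permutation p 0.0571). The Bmp6 groups overlapped, the within-slide values ran from 0.10 to 0.79, and the call was lost in 18 of 36 alternatives, at adjusted p-values up to 0.125.

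Among the receptors, Bmpr1a was 3.32-fold lower in marrow, and the Acvr1 probes were 3.68-fold and 3.74-fold lower. Acvr2a was 7.99-fold lower on A_55_P2503785 and at least 4.56-fold lower on A_52_P575854, whose marrow signal at 0 h was above background on 0 of 4 arrays. For these 5 probes every liver array lay above every marrow array. Neo1 differed between its probes. A_55_P2733167, above background on 1 of 4 marrow arrays at 0 h, was called lower by -1.95 (limma adjusted p 5.15e-06). That probe passed the background filter through liver groups only, which favours such a call. Its size rests on marrow signals mostly not well above background. The second probe, A_51_P476728, tested in both tissues, differed by -0.34 (SE 0.21, adjusted p 0.147). The second was called lower in 2 of 36 alternatives, at adjusted p 0.0312 without marrow 0 h replicate 2 and 0.0484 with array weights. With normexp background correction, which adds an offset of 50 to every signal, the differences of dim probes were smaller: -4.62 for Hfe2, -4.66 for Tmprss6 on A_55_P2744935, -1.503 for Acvr2a on A_52_P575854 and -1.11 for Neo1 on A_55_P2733167.

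**Figure D4:**
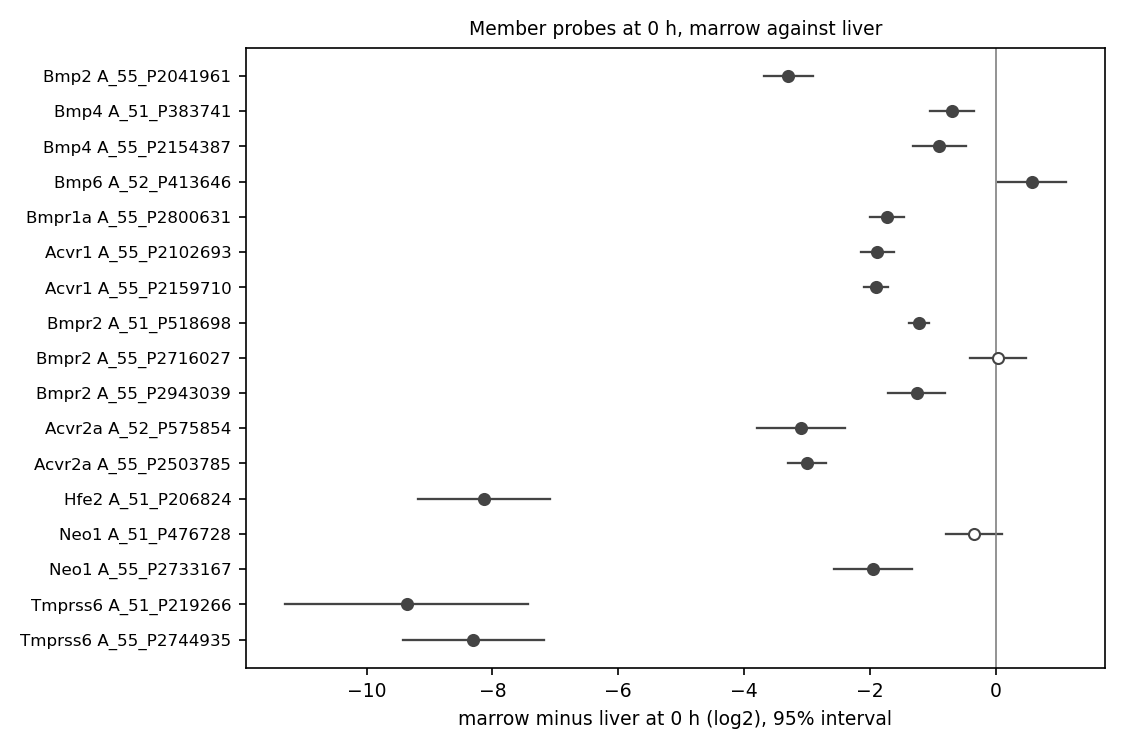
Marrow minus liver at 0 h (log2) for the 17 tested member probes, with 95% intervals from the limma fit over 24 arrays; filled points are called at an adjusted p under 0.05. Points for Tmprss6 and Hfe2 lie below -8, Bmp6 is the filled point above 0, and the open points are Bmpr2 on A_55_P2716027 and Neo1 on A_51_P476728.

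The Bmpr2 probes did not give a single answer. A_51_P518698 was 2.33-fold lower in marrow at 0 h (difference -1.22, SE 0.08, limma adjusted p 7.43e-12). A_55_P2943039, whose printed stretch holds a word shared with 20 probes of other gene names, differed by -1.26 (SE 0.22, adjusted p 2.2e-05), with 3 of 4 liver and 2 of 4 marrow arrays well above background. That probe passed the background filter through liver at 24 h only, which favours a lower marrow level. With normexp background correction the difference was -0.94 for A_55_P2943039 and -1.10 for A_51_P518698. A_55_P2716027, the probe with the CA repeat, read -0.60, -0.22, -0.90 and -0.94 in liver and -0.54, -0.42, -0.86 and -0.70 in marrow. Its groups overlapped, and the difference was 0.03 (95% interval -0.42 to 0.48, limma adjusted p 0.901). The 12 liver arrays of this probe spanned -1.27 to -0.06 and those of A_51_P518698 spanned 1.60 to 1.87. Whether the repeat sets the level of A_55_P2716027 was not tested.

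**Figure D5:**
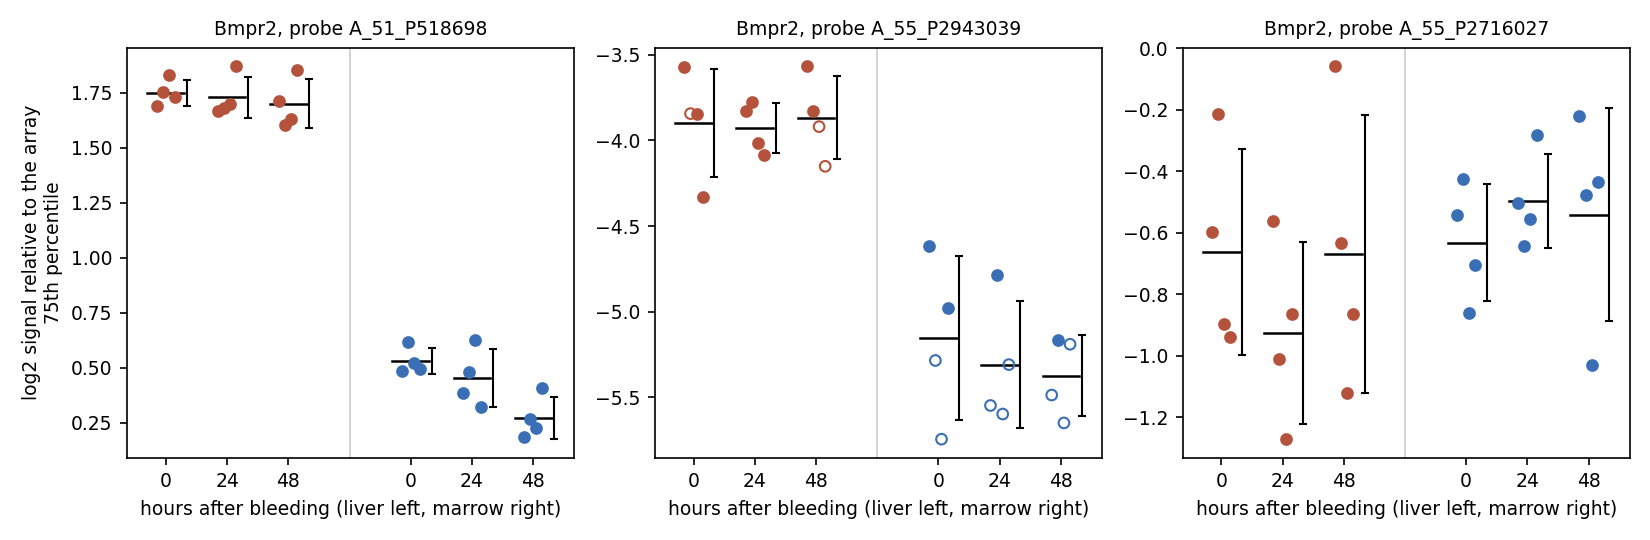
Level (log2 signal relative to the array's 75th percentile, own scale for each probe) of the 3 Bmpr2 probes on each of the 24 arrays by hours after bleeding, liver in red and marrow in blue, replicates 1 to 4 from left to right in each group; open points are not well above background, lines are means and bars ± 1 SD over 4 arrays. Liver lies above marrow on every array for A_51_P518698 and A_55_P2943039, and the tissues overlap for A_55_P2716027.

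The rest of the pathway was counted over 59 other genes in 6 lists. In liver 0 of 65 probes were called by limma at 24 or 48 h, with 2 higher and 4 lower at an unadjusted p under 0.05 at 24 h and 3 higher and 5 lower at 48 h. Over all liver probes 0.0% were called, and the unadjusted shares were 5.12% higher and 5.34% lower at 24 h and 2.62% higher and 3.34% lower at 48 h. The targets of the signal had the lowest median change of the 6 lists at both times. Of 8 probes 0 were called, 1 was lower at 24 h and 3 at 48 h at an unadjusted p under 0.05, and the median change was -0.36 and -0.50, beside -0.015 and -0.014 over all liver probes. Hamp, the hepcidin gene, was at 7.18 ± 0.38 at 0 h and 5.42 ± 0.83 at 48 h (change -1.76, SE 0.37, limma adjusted p 0.472). Id3, a SMAD target, was at 2.93 ± 0.35 and 2.16 ± 0.20 (change -0.77, adjusted p 0.57). Smad7, an inhibitory SMAD, changed by -0.72 on A_51_P403636 (adjusted p 0.615). At 48 h that was the 1 SMAD probe lower at an unadjusted p under 0.05, so the other tested Smad7 probe was not lower at that level.

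In marrow 0 of 70 probes of these lists were called by limma at 24 h, beside 0.845% of all marrow probes, with 3 higher and 11 lower at an unadjusted p under 0.05, where 5.58% of all marrow probes were higher and 6.16% lower at that level. At 48 h 1 was higher and 14 were lower at an unadjusted p under 0.05, beside 10.4% and 4.96% of all marrow probes. By limma 2 of the 70 were called at 48 h, a share of 2.86% beside 1.21% of all marrow probes, both lower and both of Fstl1, a secreted follistatin-like glycoprotein. Fstl1 changed by -0.72 (SE 0.14, adjusted p 0.0337) on A_55_P2143517 and by -0.76 (SE 0.15, adjusted p 0.0391) on A_51_P215106. Those calls were lost in 10 of 25 and 14 of 24 alternatives, and the remaining Fstl1 probe, A_55_P2720547, was called in 0 of 24.

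The 17 probes of extracellular antagonists, proteins that bind BMPs or activins outside the cell, had 1 higher and 8 lower at an unadjusted p under 0.05 at 24 h, with a median change of -0.40 beside -0.02 over all marrow probes. At 48 h 1 was higher and 7 were lower, and the median change was -0.09 beside 0.01. Without 24 h replicate 2 the median at 24 h was -0.30, with 8 lower at an unadjusted p under 0.05. Bmper changed by -1.13 (limma adjusted p 0.0659) and Fst, follistatin, by -1.04 (adjusted p 0.0666). Without 24 h replicate 2 Fst was called lower at 24 h (-1.30, SE 0.15, adjusted p 0.0056) and at 48 h (-1.06, SE 0.14, adjusted p 0.0079). In that analysis Tfr2, at 0.57, and Fgl1, at 2.69, were also called higher at 48 h (adjusted p 0.0494 and 0.0349), and both Fstl1 calls held.

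Of the other BMP and activin ligands, 11 probes were tested in marrow with 0 called by limma and 2 lower at an unadjusted p under 0.05 at each time. Bmp5 on A_65_P06881 was among them, at -0.47 at both times (adjusted p 0.338 and 0.241). The Bmp5 probe A_51_P516637, also tested, was not among them at either time. Of 11 probes of other receptors 0 were called, as were 0 of 15 probes of other co-receptors, 0 of 10 SMAD probes and 0 of 6 probes of targets, at either time. At an unadjusted p under 0.05 these lists had 0, 3, 0 and 0 probes at 24 h and 1, 2, 1 and 1 at 48 h.

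At 0 h 62 of 77 probes of these lists, 80.5%, differed between the tissues, a share near the 79.2% of all probes. Of the 77, 20 were higher and 42 lower in marrow, where 40.7% of all probes were called higher and 38.5% lower. In the interactions 1 of 77 was called by limma at 24 h, a share of 1.3% beside 0.282% of all probes, and 0 at 48 h, beside 0.247%. At an unadjusted p under 0.05, 0 of the 77 were higher and 10 lower at 24 h, beside 5.37% and 5.08% of all probes. At 48 h 1 was higher and 9 were lower at that level, beside 6.85% and 3.26% of all probes. The called probe was A_55_P2923106 of Chrdl1, a secreted BMP antagonist, which changed by -1.01 in marrow and 1.13 in liver (difference -2.14, SE 0.41, limma adjusted p 0.0307). Without marrow 24 h replicate 2 the call was lost (-2.10, adjusted p 0.0591), and it was lost in 15 of 33 alternatives in all. It was well above background on all 12 marrow arrays and on 1 of 12 liver arrays, so its liver change lies at the floor of the measurement.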

How the data were processed

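The deposited scanner files hold 1 single-colour array each; per the file headers, the processed spot intensity is background subtracted, detrended within the array and not normalised between arrays. The extraction software was Agilent Feature Extraction 10.10.1.1, per the submitters' processing notes. The deposited flags for probes well above background are the scanner software's own. The authors also deposited a table of log2 values, whose making, centring and scale are not given in the sources used here. Probes rank in that table as by median spot signal on the same array (Spearman correlation 1 after rounding). Its column medians were 7.737 to 7.74 for liver, 8.309 to 8.313 for marrow, and it served only as an alternative.

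From the processed intensity, 3671 control spots were removed, log2 was taken and the log2 75th percentile of the array's 59305 other spots was subtracted. Outlier spots were left out, and 300 probes with several spots were averaged. The number of arrays, 4 per group, limits the precision. Each probe was tested with limma 3.58.1 in R 4.3.3 (lmFit and eBayes, two-sided, Benjamini-Hochberg over all tested probes, threshold 0.05), fitting 12 arrays per tissue, or 24 for comparisons between tissues. The tests were checked on simulated data. Groups and numbers came from sample titles. Every member probe was named, then, of 6 other lists, each called probe or those with the smallest unadjusted p. Genes nearest to a pattern were the 3 named genes with the highest Pearson correlation. Members, lists and tests were chosen with earlier results of these data known. The alternatives were 13 other settings (scaling, background correction, the authors' table, filter, probes per gene, blocks, variance model, array weights, arrays fitted) and leaving out each array. Exon and protein positions of the probes were not analysed here.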

Additional observations from a re-analysis of the deposited data

Results flagged for a closer look

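In 7 of 87 groups of 4 arrays, over the member probes, the highest or lowest array stood apart from the other 3 by Dixon's criterion, which chance gives in about 5% of groups. Bmp2 read 1.02 on liver 24 h replicate 1, against 1.54 to 1.62 on the other arrays, and -1.38 on marrow 0 h replicate 2, against -1.64 to -1.60. Bmp4 on A_55_P2154387 read 0.55 on marrow 0 h replicate 4, against 0.24 to 0.29. Bmpr2 on A_51_P518698 read 1.87 on liver 24 h replicate 4, against 1.67 to 1.70. Neo1 on A_55_P2733167 read -3.39 on liver 0 h replicate 4, against -3.83 to -3.77. Tmprss6 on A_55_P2744935 read 1.06 on liver 48 h replicate 3, against 1.28 to 1.31. The widest gap was Tmprss6 on A_51_P219266, at 2.56 on marrow 24 h replicate 2 against -4.54 to -3.53, the array on which hepatocyte markers lay at a median of 15.1% of their liver mean.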

How the results depend on the processing

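The fall of Bmp4 in marrow at 24 h was called on both probes in all 24 and 25 alternatives that could test them, with adjusted p-values up to 0.0229 and 0.0227. The count of called member probes in marrow at 24 h was 1 with 1 probe per gene, in place of 2. At 48 h it was 1 with median scaling, without the filter on dim probes and with 1 probe per gene, and ran from 1 to 2 when 1 array was left out. For A_51_P383741 at 48 h the adjusted p was 0.0593 with median scaling and 0.0919 without the filter. Leaving out marrow 0 h replicates 1 to 4 gave 0.0528, 0.0524, 0.0862 and 0.0588, and leaving out marrow 48 h replicates 1 to 3 gave 0.0544, 0.0968 and 0.0515. Marrow against liver at 0 h gave 9 called member probes with 1 probe per gene, in place of 15. With fewer probes per gene these counts fall by construction, and the cause of the other shifts was not tested. No member reversed a call.

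Replicate numbers were not treated as pairing the samples, since not every correlation of same-numbered arrays was over 0.1. Deviations of same-numbered arrays of a tissue correlated between -0.25 and 0.12 (liver) or between -0.23 and 0.17 (marrow); 4 of 12 liver and 6 of 12 marrow arrays were closest to an array of their own number. Liver and marrow arrays of the same time and number correlated between 0.012 and 0.14 in 12 pairs (median 0.087), against a median of -0.029 over 36 pairs of different numbers. The 12 same-numbered pairs each lay on a single slide, so a shared number came with a shared slide. Across tissues at the same time, same-slide pairs had a median of 0.055 (18 pairs), against -0.025 for different slides (30 pairs). Within a tissue the same-slide medians were 0.092 (liver) and 0.093 (marrow), beside same-number medians of 0.022 and 0.051. With the number as a block the counts of called member probes were unchanged in marrow at 2 at 24 h and 2 at 48 h, with Bmp4 at adjusted p 0.0121 and 0.0117 at 24 h and 0.0377 and 0.0225 at 48 h. Over all marrow probes 272 and 389 were called at 24 and 48 h. With the block these counts were 159 and 152, with the slide as a block 215 and 143, without the filter 88 and 110, with array weights 516 and 1220, and with 1 array left out 98 to 284 and 129 to 545. They were 170 at 24 h when only the 2 groups were fitted, and at 48 h 184 with median scaling and 605 with an intensity trend. In the interactions, called for 97 and 85 probes, median scaling gave 22 and 17, normexp 160 and 209, no filter 19 and 24, the replicate block 47 and 47, and leaving out an array 28 to 157 and 31 to 101. At 48 h the interaction gave 182 among probes above background on every array, 49 with the slide block, 178 with an intensity trend and 217 with array weights. In liver leaving out 1 array called at most 14 probes. Probes near or below background (Hfe2 and the second Tmprss6 probe in marrow) have only bounds there.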
